A study of Arabidopsis thaliana with 24 samples.

Results

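In Arabidopsis roots on high KNO3, 59 of 32833 genes had isoxaben responses of opposite direction after a short and a long exposure. Isoxaben blocks the synthesis of cellulose at the plasma membrane. The 59 genes were chosen from the deposited normalised counts, which are counts divided by a size factor per library. Group means plus 1 gave a log2 ratio of isoxaben to mock for each exposure at 60 mM KNO3. A gene was taken when both ratios had opposite signs and sizes of at least 0.4, and when its mean over the 12 libraries at 60 mM was at least 50. Of the 17344 genes with such a mean, 0.34% met the rule, and 35.3% had ratios of opposite sign at any size. The set divides into 31 genes that were higher in the shift and lower in the long-term treatment, called shift-high below, and 28 genes with the reverse pattern, called long-term-high. Because the rule used all 12 libraries at 60 mM, the members' values and calls at 60 mM describe the choice and support nothing. The comparisons read as tests of members are those between groups at 6 mM KNO3, whose libraries the rule did not use, taken from 1 fit of all 24 libraries. For genes outside the set, tests at 60 mM are given too. By the rule, none of those genes has both a mean of at least 50 and opposite ratios of at least 0.4.

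All libraries came from roots of Col-0 seedlings, the wild-type reference accession, harvested 6 days after stratification. The medium was modified MS with 6 or 60 mM KNO3. Long-term seedlings spent the whole time on medium with 2.5 nM isoxaben or mock. Shift seedlings grew on polyester mesh and were moved on day 5 to fresh medium of the same KNO3 level with 2.5 nM isoxaben or mock. The 2 exposures therefore also differ in mesh and transfer, and 60 mM differs from 6 mM in both nitrate and potassium. Each of the 8 groups held 3 libraries. The labels do not say whether the replicates were separate plates or growths, so p-values measure only the spread between these libraries.

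Cellulose fibres carry the tension of the growing wall, and roots that cannot make them swell, stop elongating and activate wall damage, hormone and defence responses. Roots also take up iron, phosphate and potassium through transporters whose genes respond to supply. Subgroup Ib bHLH factors partner with the factor FIT to turn on iron uptake, and phosphate starvation induces phosphatases and the RNAs that sequester miR399.

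Library totals ranged from 18902538 to 20519913 counts, and no 2 replicates of a group were identical or within counting noise. The root marker sum of 7 genes lay between 9184 and 13347 normalised counts. The sum over 19 shoot photosynthesis markers outside the set lay between 3605 and 16799 in roots, so these libraries hold shoot-type transcripts in varying amounts. For long-term isoxaben at 60 mM this sum was 3605, 12936 and 4805 in replicates 1 to 3. In long-term mock at 60 mM it was 10469, 14858 and 12612. Isoxaben replicate 2 thus stood apart from the other 2 isoxaben libraries but lay within the mock range. Isoxaben replicates 1 and 3 lay below all 3 mock values. Isoxaben replicate 2 held the highest value at 60 mM of 12 of the 28 long-term-high members, and replicate 3 that of 11. The 6 members that leave the set without isoxaben replicate 2 are named below with their ratios. More members leave without shift isoxaben replicate 3 (15) or shift mock replicate 1 (13), both at 60 mM. In bulk roots, fewer cells of a type and less RNA per cell cannot be told apart.

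The promoter-side sequences of 4 members show what the paired and the single genes share. Each run is the 250 bases before the annotated start, 5′ to 3′ along the gene, from the RefSeq assembly TAIR10.1, with matches to the searched motifs in capitals. The submitters' processing notes name TAIR10, and the deposited tables hold no coordinates, so positions are those of TAIR10.1. bHLH38 and bHLH39 are shown because they are neighbours on chromosome 3, with 1145 bases and 0 annotated genes between them, and have the same pattern. AT5G03545 and AT3G62930 are shown because they carry the P1BS letters, known as the site of the phosphate starvation regulator PHR1, and belong to opposite classes.
bHLH38 (chr3:21085246-21085495, minus strand): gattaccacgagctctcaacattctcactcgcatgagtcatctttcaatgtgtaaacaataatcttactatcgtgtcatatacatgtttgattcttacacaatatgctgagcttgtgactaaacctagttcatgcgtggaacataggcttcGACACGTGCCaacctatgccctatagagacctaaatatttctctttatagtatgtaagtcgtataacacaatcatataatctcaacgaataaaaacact
bHLH39 (chr3:21087711-21087960, minus strand): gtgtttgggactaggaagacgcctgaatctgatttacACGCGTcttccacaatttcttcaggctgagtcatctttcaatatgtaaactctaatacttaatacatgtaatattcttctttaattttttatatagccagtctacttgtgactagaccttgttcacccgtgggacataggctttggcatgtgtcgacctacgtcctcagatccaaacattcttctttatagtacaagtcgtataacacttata
AT5G03545 (chr5:894332-894581, plus strand): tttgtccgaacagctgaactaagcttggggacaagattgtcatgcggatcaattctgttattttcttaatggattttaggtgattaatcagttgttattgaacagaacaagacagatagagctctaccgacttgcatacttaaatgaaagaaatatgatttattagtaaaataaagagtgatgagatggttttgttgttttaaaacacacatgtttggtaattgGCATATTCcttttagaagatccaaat
AT3G62930 (chr3:23261928-23262177, minus strand): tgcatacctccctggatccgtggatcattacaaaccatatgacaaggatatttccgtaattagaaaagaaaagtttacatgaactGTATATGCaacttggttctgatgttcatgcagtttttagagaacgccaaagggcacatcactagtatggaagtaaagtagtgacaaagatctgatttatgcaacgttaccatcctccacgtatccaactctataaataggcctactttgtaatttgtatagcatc

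In a global alignment the bHLH38 and bHLH39 runs had 176 identical bases of 250, or 70.4%, and their longest shared run was the 16 bases tgagtcatctttcaat. The capitals in bHLH38 are a G-box, CACGTG, overlapped on both sides by ABRE letters, ACGTGNC, and those in bHLH39 are ACGCGT, which contains CGCGT on both strands. P1BS was searched as GNATATNC. All motifs were read on both strands. P1BS letters were in 5 of the 59 members (8.5%) against 5.5% of 20006 promoters of the same length, 4 of them shift-high. The G-box was in 3 members (5.1%, against 7.2% of promoters), the GCC-box, searched as GCCGCC, in 3 (5.1% against 1.9%), and site II, searched as TGGGCC, in 1 (1.7% against 16.2%). A match is a description of letters.

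AT5G03545 is annotated as AT4, or IPS2, one of the RNAs known to sequester miR399, and the match is therefore shown. The mature miR399b and miR399c-3p have the same letters, written here as DNA with the seed, bases 2 to 8, in capitals. In the site, capitals mark the bases that pair with the miRNA.
miR399b (chr1:23345387-23345407, minus strand) and miR399c-3p (chr5:24962568-24962588, plus strand): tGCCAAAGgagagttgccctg
site in AT5G03545 (chr5:895149-895172, plus strand, bases 568 to 591 of the 936-base transcript): ttGGGCAACTtcgaTCCTTTGGCA
The 24-base site pairs with all seed bases and left 3 target bases unpaired, with 3 mismatches in the rest. The other miR399 members with the same seed, a, d, e and f, had 4 or 5 mismatches at this site.

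The isoxaben ratios at 60 mM had a median absolute size of 0.78 in the long term, from 0.41 to 3.55, and 0.56 in the shift, from 0.40 to 2.23. The long-term ratio was the larger in 42 of the 59 genes. In the long-term comparison, the 3 isoxaben and 3 mock libraries did not overlap in 48 members, where 42.3% of all genes with a mean of at least 50 did not. In the shift the number was 47, where 25% of all genes did not overlap. In 39 members neither comparison overlapped, and the share of all genes for both together was not counted. By edgeR's quasi-likelihood test (adjusted p under 0.05 over 20546 genes), the long-term comparison called 27 shift-high genes lower, where 15.8% of all genes were called lower, and 22 long-term-high genes higher, where 16% were. The shift comparison called 24 shift-high genes higher (7.35% of all genes) and 12 long-term-high genes lower (5.59%). The difference between exposures was called in 53 members, where 11.5% of all genes were called. Since the rule used these libraries, all of these counts describe the choice and nothing is read from them. Just inside the threshold lay UMAMIT36, with a shift ratio of -0.40, MYB52, with 0.40, and AT2G43870, with -0.41. Just outside lay the iron transporter gene IRT1, with ratios of 1.69 and -0.40, AT1G08440 with 0.73 and -0.40, and AT1G73120 with 1.68 and -0.40. The shift ratios of UMAMIT36 and IRT1 are equal to the second decimal, so the edge of the set is not a step in the data.

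**Figure D1:**
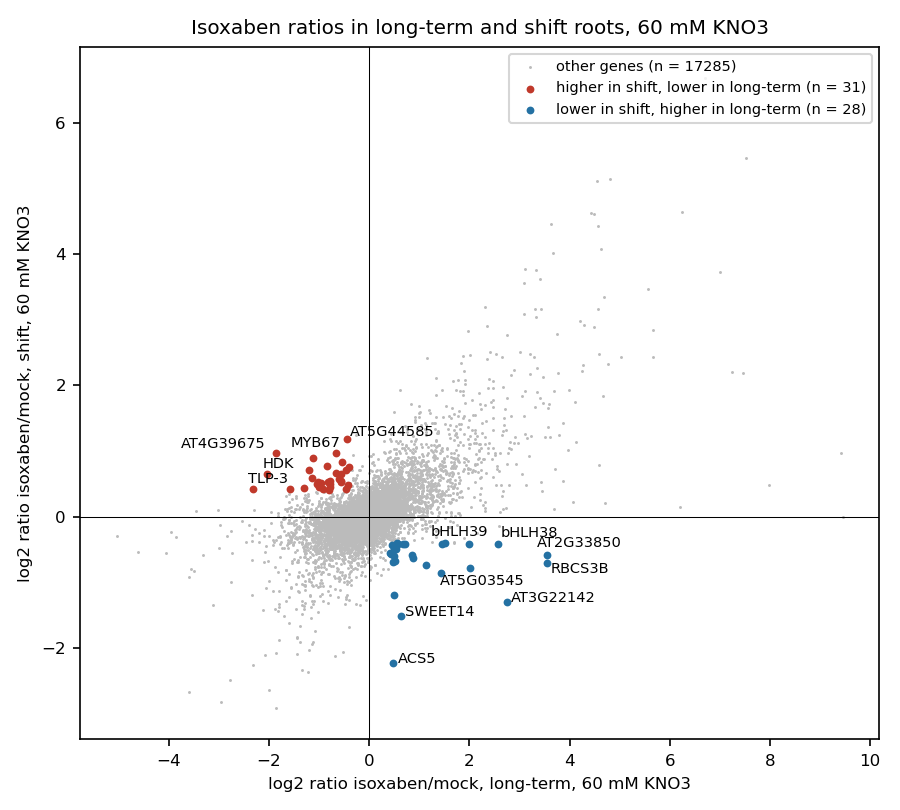
Log2 ratio of isoxaben to mock at 60 mM KNO3 in the long-term (x axis) and shift (y axis) treatment for the 17344 genes with a mean of at least 50 normalised counts. Red marks the 31 shift-high genes, blue the 28 long-term-high genes and grey all others. Under the rule no grey gene can have ratios of opposite sign that both reach its size threshold. The lack of grey points there follows from the choice.

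The next values use the same 60 mM libraries as the rule, which by itself favours a wide gap between the isoxaben groups and an opposite gap between the mock groups, so they are a description alone. The difference between shift and long-term isoxaben libraries was larger in size than that between the 2 mock groups in 51 of 59 genes. The 2 isoxaben groups did not overlap in 52 members (34.3% of all genes) and the 2 mock groups in 23 (22.5%). Among shift-high genes the median log2 ratio of shift to long-term was 1.13 in isoxaben and -0.24 in mock, and 28 of 31 were lower in shift than in long-term mock, where 50.7% of all genes were. Among long-term-high genes the medians were -1.13 and 0.23, and 20 of 28 were higher in shift mock, where 49.3% of all genes were. The long-term isoxaben group had the lowest of the 4 group means at 60 mM in 27 of the 31 shift-high genes and the highest in 26 of the 28 long-term-high genes. The shift isoxaben group had the highest mean in 26 of the shift-high genes and the lowest in 19 of the long-term-high genes.

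**Figure D2:**
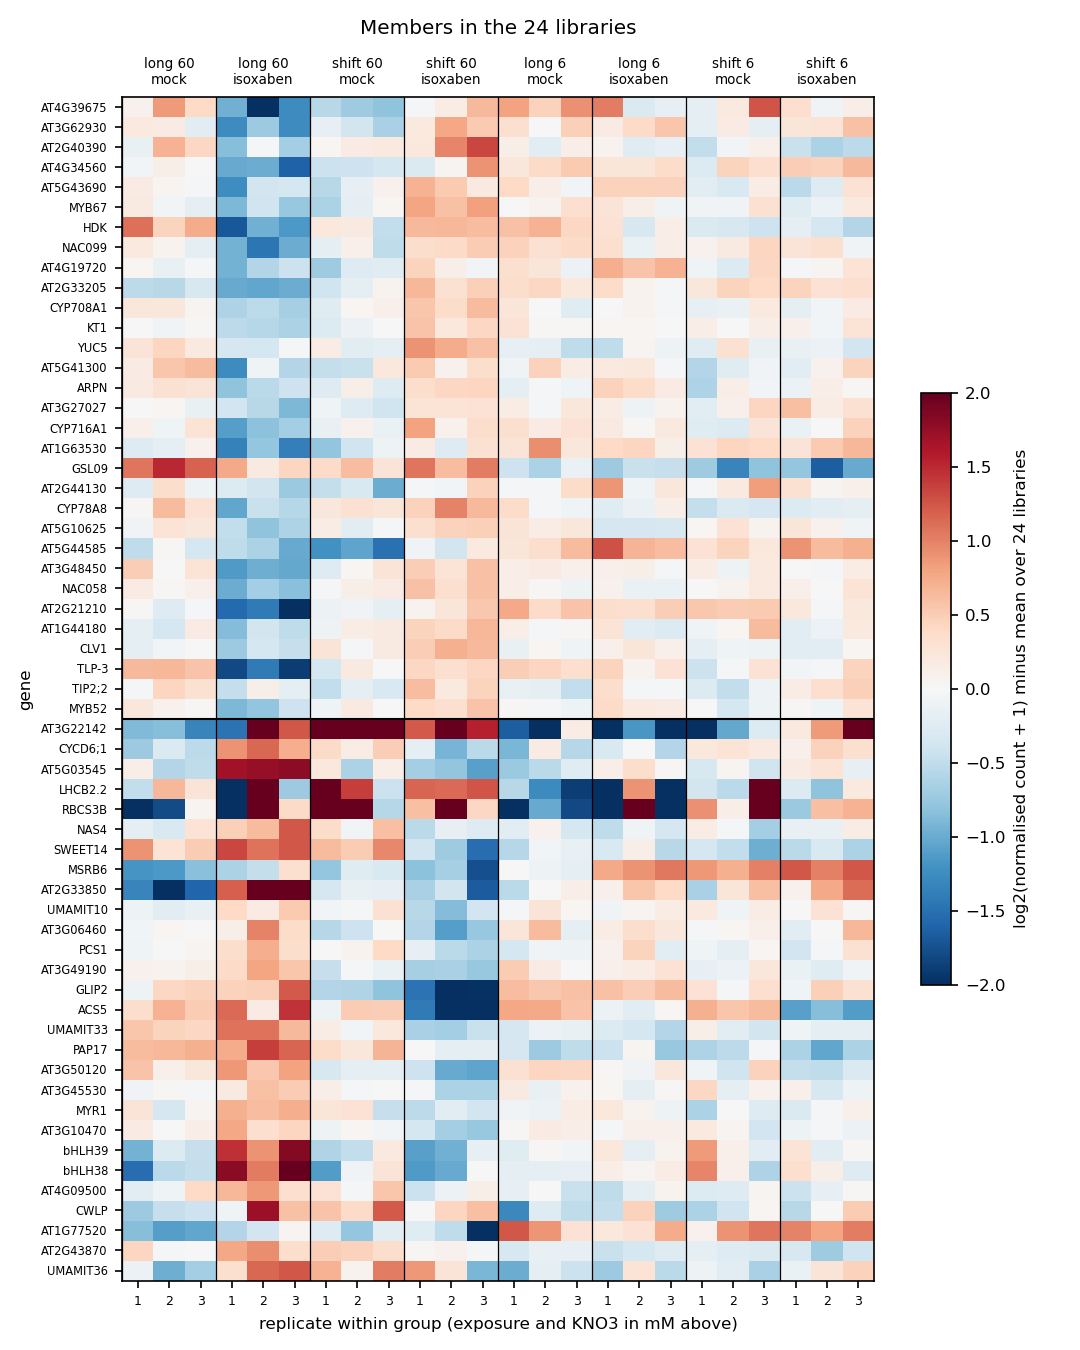
Log2 of normalised count plus 1 in each of the 24 libraries (columns, by group) minus the mean over all 24, for the 59 genes (rows; above the line, shift-high; below, long-term-high). The long-term isoxaben columns at 60 mM stand out: of the 4 groups at 60 mM they have the lowest mean in 27 of the 31 shift-high rows and the highest in 26 of the 28 long-term-high rows.

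Iron genes were among the long-term-high members. bHLH38, which encodes an iron deficiency factor, had 26.7, 53.6 and 56.1 normalised counts in the long-term mock libraries and 277, 162 and 385 with long-term isoxaben. In the shift it had 35.6, 74.4 and 93.7 in mock and 35.2, 38.5 and 78.1 with isoxaben. All 3 long-term isoxaben values exceeded every other value at 60 mM, while the shift groups overlapped. Its ratios were 2.57 and -0.42. The neighbour bHLH39 had 109.7, 176 and 154 in long-term mock and 589, 397 and 763 with isoxaben. In the shift its values were 139.5, 152 and 245 in mock and 99.6, 109 and 191 with isoxaben, again overlapping, so the fall in the shift rests on group means alone. Leaving out shift mock replicate 3 or shift isoxaben replicate 1 or 2 takes both genes out of the set, and leaving out shift mock replicate 2 takes out bHLH38.

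NAS4, which encodes an enzyme that makes the metal chelator nicotianamine, had 585, 534 and 798 in long-term mock and 919.8, 1029.8 and 1557 with isoxaben. Its shift values were 852, 639 and 997 in mock and 454, 589 and 553 with isoxaben. Neither pair of groups overlapped, and the ratios were 0.87 and -0.64. At 6 mM the 12 libraries held 413 to 736 for NAS4, 50.4 to 156 for bHLH38 and 179.6 to 386 for bHLH39. The long-term isoxaben levels of bHLH38 and bHLH39 at 60 mM lay above all of their 6 mM values.

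The other 25 tested genes of a list of iron, zinc and copper deficiency genes are set beside these 3. In the long term at 60 mM, 13 of them rose and 5 fell by the edgeR test, with a median log2 change of 0.57, where 31.9% of all genes were called and the median over all genes was 0.01. In the shift 2 rose and 1 fell, with a median of -0.08 and 12.9% of all genes called. BHLH100, from the same subgroup, had group means of 7.42 in long-term mock and 220.2 with isoxaben, a log2 change of 4.87 with an SE of 0.59 (adjusted p = 2.66e-06). Its shift means were 16.1 and 18.8 (log2 change 0.23, SE 0.69, adjusted p = 0.90). IRT1, the main root iron transporter, had means of 573.5 and 1854 in the long term (1.69, SE 0.43, adjusted p = 0.0053) and 2936 and 2226 in the shift (-0.40, SE 0.39, adjusted p = 0.64). The IRT1 mean in shift mock was thus above both long-term means. FER1, a ferritin that stores iron, fell in the long term from 4012 to 1613 (-1.32, SE 0.27, adjusted p = 0.00083). The genes that fell in the long term were FER1, FER4 and the copper proteins CSD1, CSD2 and CCS. IRT2 rose in all 4 isoxaben comparisons. By the edgeR test, BTS rose in the long term and fell in the shift at 60 mM (0.31 and -0.21, adjusted p = 0.0012 and 0.043). No other listed gene was called in opposite directions there. Outside the set the rule itself leaves little room for such calls, so nothing is read from their lack.

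Phosphate genes formed the second group. AT5G03545 had 155, 93.01 and 98.96 in long-term mock and 452, 474 and 489 with isoxaben. Values in the shift were 163, 90.03 and 154 in mock and 87.9, 80.8 and 66.01 with isoxaben. The groups did not overlap in either exposure, and the ratios were 2.02 and -0.79. PAP17, a purple acid phosphatase induced by phosphate starvation, had 183, 186 and 193 in long-term mock and 197, 308 and 264 with isoxaben. After the shift the values were 151, 137 and 189 in mock and 117, 103 and 103 with isoxaben. Again neither pair overlapped, but the long-term gap was narrow, and without long-term isoxaben replicate 2 PAP17 leaves the set.

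Among the other 15 tested phosphate starvation genes at 60 mM, 5 rose and 5 fell in the long term, where 16% of all genes rose and 15.8% fell. In the shift 1 rose and 2 fell, where 7.35% and 5.59% of all genes did. The medians were 0.12 in the long term and -0.15 in the shift. IPS1, the other known miR399 decoy, rose from a mean of 12.0 to 56.1 in the long term (log2 change 2.21, SE 0.40, adjusted p = 7.8e-05) and had means of 20.6 and 14.6 in the shift (-0.50, SE 0.43, adjusted p = 0.57). SPX1, a phosphate sensor protein gene, rose in the long term from 148.1 to 325 (1.13, SE 0.16, adjusted p = 2.28e-06). The phosphate transporter genes PHT1;1 and PHT1;4 fell in the long term, with log2 changes of -1.05 and -1.34 (adjusted p = 2.17e-05 and 7.2e-11). PHT1;4 also fell in the shift (-0.90, SE 0.10, adjusted p = 1.99e-07).

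**Figure D3:**
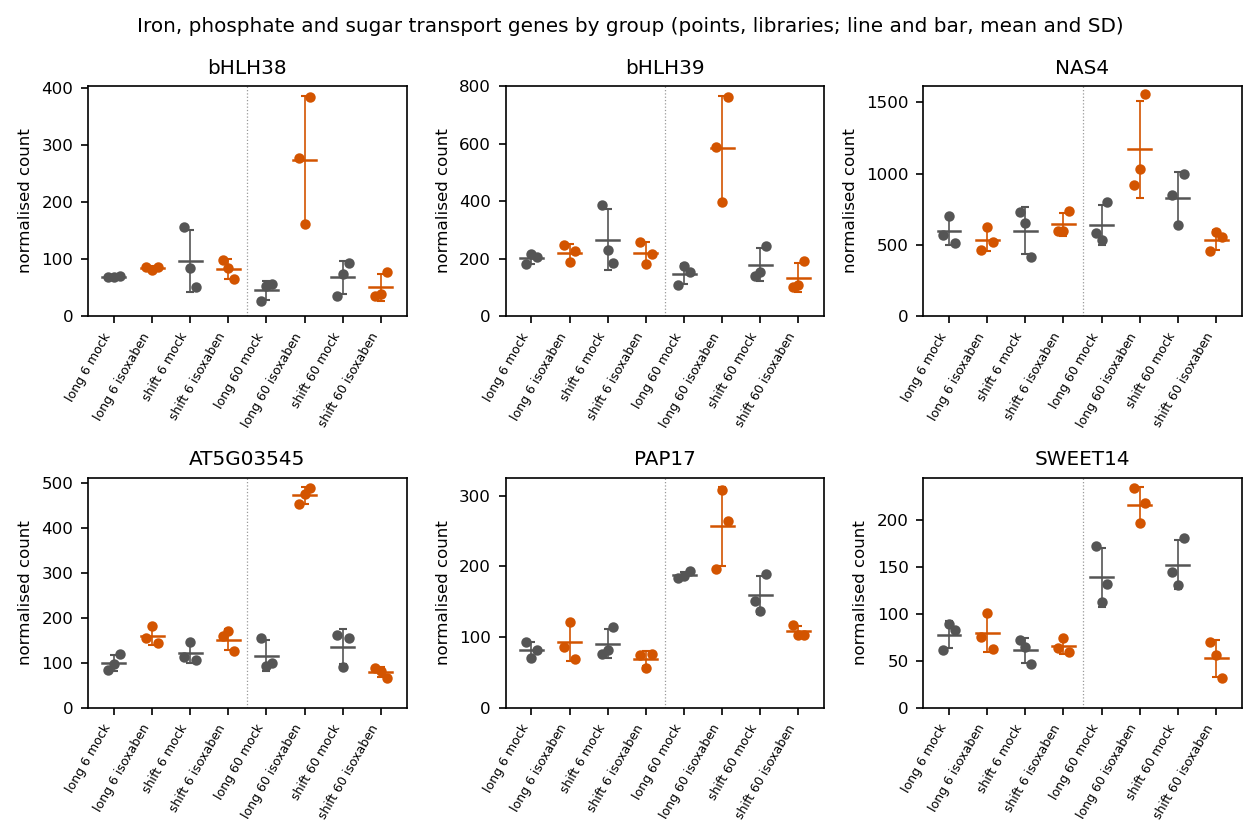
Normalised counts of 6 long-term-high genes in the 8 groups (points, libraries; line and bar, mean and SD of 3; orange, isoxaben; grey, mock; the dotted line parts 6 from 60 mM KNO3). In all 6 panels the long-term isoxaben mean at 60 mM is the highest of the 8 groups.

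Transporters of sugars and amino acids made up a further 4 long-term-high genes. SWEET14, a sugar exporter, had 173, 112 and 132 in long-term mock and 234, 197 and 219 with isoxaben. The shift libraries held 144, 131 and 182 in mock and 70.3, 56.3 and 31.6 with isoxaben. Every shift isoxaben value lay below every mock value, with ratios of 0.64 and -1.51. UMAMIT33, of a family of amino acid exporters, had 303, 280.1 and 273 in long-term mock and 437, 438 and 323 with isoxaben. In the shift it had 229, 198 and 238 in mock and 131, 129 and 152 with isoxaben. UMAMIT33 overlapped in neither exposure. UMAMIT10 had ratios of 0.52 and -0.67, likewise without overlap. UMAMIT36 had ratios of 1.51 and -0.40, and its shift groups overlapped (1140.2, 738 and 1427 in mock, 1283, 843 and 374 with isoxaben).

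ACS5 encodes an ACC synthase, the enzyme of the committed step of ethylene synthesis. It had 75.1, 96.05 and 83.7 in long-term mock and 130.4, 65.6 and 162 with isoxaben, where replicate 2 lay below all mock values. Its shift values were 54.8, 84.2 and 83.04 in mock and 21.5, 10.3 and 13.02 with isoxaben, the largest shift ratio of the set, -2.23. Without long-term isoxaben replicate 3 the rule is no longer met. CYCD6;1, a D-type cyclin known from formative divisions of the root ground tissue, had 32.6, 44.5 and 37.7 in long-term mock and 103, 122 and 91.2 with isoxaben. Values in the shift were 71.2, 60.7 and 77.2 in mock and 47.9, 28.2 and 37.2 with isoxaben. CYCD6;1 overlapped in neither exposure. Of the other 36 cell cycle genes tested at 60 mM, 1 rose and 13 fell in the long term, where 16% of all genes rose and 15.8% fell. In the shift 0 rose and 2 fell, where 7.35% and 5.59% of all genes did.

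Wall and lipid genes followed. AT2G33850, an E6-like protein, had 34.6, 19.2 and 28.6 in long-term mock and 201, 407 and 388 with isoxaben. After the shift the values were 69.3, 79.3 and 78.2 in mock and 55.7, 67.6 and 26.96 with isoxaben. All long-term isoxaben values lay above all other values of this gene at 60 mM, and the ratios were 3.55 and -0.58. GLIP2, a GDSL lipase, had ratios of 0.49 and -1.20; its shift isoxaben values were 21.5, 12.2 and 14.9 against 40.4, 40.1 and 34.8 in mock, and its long-term groups overlapped. The fatty acid elongase family gene AT3G06460 had 0.54 and -0.49, and the wax ester synthase family gene AT3G49190 0.49 and -0.49, both without overlap. MSRB6, a methionine sulfoxide reductase that repairs oxidised methionine, had 0.85 and -0.59, with overlap in the shift. The aspartic protease PCS1 had ratios of 0.49 and -0.60 and the transcription factor MYR1 0.67 and -0.43.

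Shoot photosynthesis genes gave 2 members. RBCS3B, a subunit of the carbon-fixing enzyme Rubisco, had 0.988, 6.07 and 24.5 in long-term mock and 5.09, 365 and 31.1 with isoxaben. The shift libraries held 231, 120.4 and 15.4 in mock and 36.1, 155 and 31.6 with isoxaben. Both pairs of groups overlapped, and the long-term ratio of 3.55 rests on isoxaben replicate 2. Its shoot sum, 12936, lay within the range of the long-term mock libraries. Long-term mock replicate 2, with a sum of 14858, held 6.07 for RBCS3B. LHCB2.2, a light-harvesting protein, had 14.8, 34.4 and 25.5 in long-term mock and 3.06, 153 and 12.4 with isoxaben, and overlapped in both exposures as well. Without replicate 2 the long-term ratio of RBCS3B is 0.73 and that of LHCB2.2 is -1.57, and LHCB2.2 leaves the set. Of the 19 other shoot markers 0 rose and 8 fell in the long term at 60 mM, opposite to these 2, where 16% of all genes rose and 15.8% fell. In the shift 0 were called, where 12.9% of all genes were. Of the 50-base exon windows, 29.5% in LHCB2.2 and 16.5% in RBCS3B recur elsewhere in the genome, so that reads may be shared with close copies. The part of shoot tissue in these values was not tested.

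The proline-rich wall linker gene CWLP and AT3G22142, a lipid transfer type protein gene 7032 bases away with 5 genes between them, also had their highest long-term isoxaben value in replicate 2. CWLP had 135, 164 and 168 in long-term mock and 211, 741 and 339 with isoxaben. In the shift it had 336, 294 and 527 in mock and 225, 303 and 340.3 with isoxaben, and these overlapped. AT3G22142 had 12.8, 13.1 and 9.18 in long-term mock and 8.15, 188 and 59.1 with isoxaben, with replicate 1 below every mock value. Its shift values were 165, 196 and 237 in mock and 58.6, 107 and 73.4 with isoxaben. For AT3G22142 the mock groups differed most in the whole set, with a log2 ratio of shift to long-term mock of 3.97, and 15.4% of its windows recur elsewhere. Without replicate 2 the long-term ratios are 0.81 for CWLP, in place of 1.46, and 1.44 for AT3G22142, in place of 2.76. The set then also loses AT3G06460, PCS1, AT3G49190, PAP17 and AT3G45530, whose long-term ratios are 0.25, 0.35, 0.38, 0.30 and 0.38 without it, and 53 of 59 members stay.

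The remaining long-term-high members are 6 genes known by family alone. They are the O-methyltransferase gene AT1G77520, the UDP-glycosyltransferase gene AT4G09500, the pectin lyase-like gene AT2G43870, the zinc finger gene AT3G10470, the C1 domain gene AT3G45530 and the DUF247 gene AT3G50120. Their long-term ratios ran from 0.42 to 0.71 and their shift ratios from -0.57 to -0.41.

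Of the 31 shift-high members, 4 encode transcription factors. NAC058, a NAC factor known to promote suberin formation in roots, had 785, 714 and 755 in long-term mock and 351, 438 and 394 with isoxaben. Values in the shift were 680.3, 759 and 789 in mock and 1058, 875 and 1061 with isoxaben. The groups were apart in both exposures, and the mock groups overlapped each other, with ratios of -0.93 and 0.43. MYB67 had 206, 175 and 158 in long-term mock and 96.8, 137 and 107 with isoxaben. After the shift the values were 116, 160.5 and 186 in mock and 314, 271 and 322 with isoxaben, also apart. MYB52, a factor linked to wall formation, had ratios of -0.80 and 0.40, and NAC099 of -1.14 and 0.59, both without overlap. NAC058 and MYB52 both leave the set without shift mock replicate 1 or shift isoxaben replicate 3. None of the 25 genes on the suberin and Casparian strip list was a member. On that list 23 fell and 0 rose in the long term at 60 mM, where 15.8% of all genes fell and 16% rose. In the shift 8 fell and 0 rose, where 5.59% and 7.35% of all genes did.

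Ion and water transport was represented by KT1 and TIP2;2. KT1, a potassium transporter, had 331, 316 and 339 in long-term mock and 232, 224 and 215 with isoxaben. The shift libraries held 276, 305 and 329 in mock and 496, 384 and 444 with isoxaben. The isoxaben libraries lay below all mock libraries in the long term and above them in the shift. TIP2;2, a water channel of the vacuole membrane and the most abundant member, had 4039, 5532 and 5072 in long-term mock and 2962, 4429 and 3617 with isoxaben, which overlapped. In the shift it had 2919, 3625 and 3307 in mock and 6268, 4683 and 5592 with isoxaben, which did not. Of the other 20 aquaporins 6 rose and 8 fell in the long term at 60 mM, where 16% of all genes rose and 15.8% fell. In the shift 4 rose and 6 fell, where 7.35% and 5.59% of all genes did.

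Auxin and signalling genes came next. YUC5, a flavin monooxygenase of auxin synthesis, had 57.3, 64.7 and 55.1 in long-term mock and 37.7, 37.2 and 46.6 with isoxaben. Its shift values were 52.9, 41.1 and 41.5 in mock and 89.8, 80.8 and 72.5 with isoxaben, without overlap in either exposure. The SAUR family gene AT2G21210, of a family of early auxin response genes, had ratios of -1.57 and 0.43, and CLV1, a receptor kinase known from the control of shoot stem cells, of -0.42 and 0.48. KMD3, here AT2G44130, one of the kelch F-box proteins that act on cytokinin response regulators, had -0.46 and 0.71. These 3 also had groups apart in both exposures, but the long-term gap of KMD3 was narrow (133.4 in isoxaben replicate 1, 134.4 in mock replicate 1). KMD3 leaves the set without long-term mock replicate 2 or isoxaben replicate 3. CLV1 leaves it without long-term mock replicate 3 or isoxaben replicate 1, and AT2G21210 without shift mock or shift isoxaben replicate 3. AT5G10625, a flowering-promoting factor-like gene, had 629, 792 and 772 in long-term mock and 467, 378 and 430.1 with isoxaben. Values in the shift were 731, 571 and 647 in mock and 822, 909 and 920.4 with isoxaben.

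Wall, defence and metabolic genes completed the class. TLP-3, a thaumatin-like protein of a defence family, had 259.9, 262 and 245 in long-term mock and 46.9, 61.2 and 43.5 with isoxaben. After the shift the values were 129, 188 and 167 in mock and 221, 207 and 220.3 with isoxaben. Its long-term ratio of -2.32 was the largest in size among shift-high genes. HDK, annotated as a headless derivative of myosin XI-K, had 127, 79.9 and 98.96 in long-term mock and 17.3, 29.5 and 25.9 with isoxaben. The shift libraries held 68.3, 66.5 and 41.5 in mock and 92.8, 93.9 and 90.2 with isoxaben. For TLP-3 and HDK the mock groups did not overlap each other either, with the shift mock libraries lower. The callose synthase family gene GSL09 had -0.79 and 0.49, the plantacyanin gene ARPN -0.83 and 0.52, and the chitinase-like gene AT4G19720 -0.60 and 0.58. All 3 cytochrome P450 members, CYP708A1, CYP716A1 and CYP78A8, were shift-high, where 130 of 17344 genes belong to that family. Their long-term ratios were -0.78, -0.96 and -1.001, and their shift ratios 0.55, 0.51 and 0.46.

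AT4G39675, an uncharacterised protein gene, ranked first of the shift-high genes by the smaller of its 2 ratios. It had 62.3, 106 and 77.5 in long-term mock and 29.5, 12.03 and 23.8 with isoxaben. In the shift it had 39.5, 35.2 and 32.8 in mock and 56.6, 64.8 and 92.04 with isoxaben, apart in both. AT3G62930, of the thioredoxin superfamily and shown above, had 135, 132 and 101 in long-term mock and 48.9, 71.1 and 48.7 with isoxaben. Its shift values were 106, 91.01 and 75.3 in mock and 136, 203 and 171 with isoxaben. AT5G44585 had the largest shift ratio of the class, 1.17, with long-term groups that overlapped. Of the other shift-high genes, AT2G40390, AT4G34560, AT5G43690, AT2G33205, AT5G41300, AT3G27027, AT1G63530, AT3G48450 and AT1G44180, the long-term ratios ran from -1.31 to -0.46 and the shift ratios from 0.42 to 0.78.

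**Figure D4:**
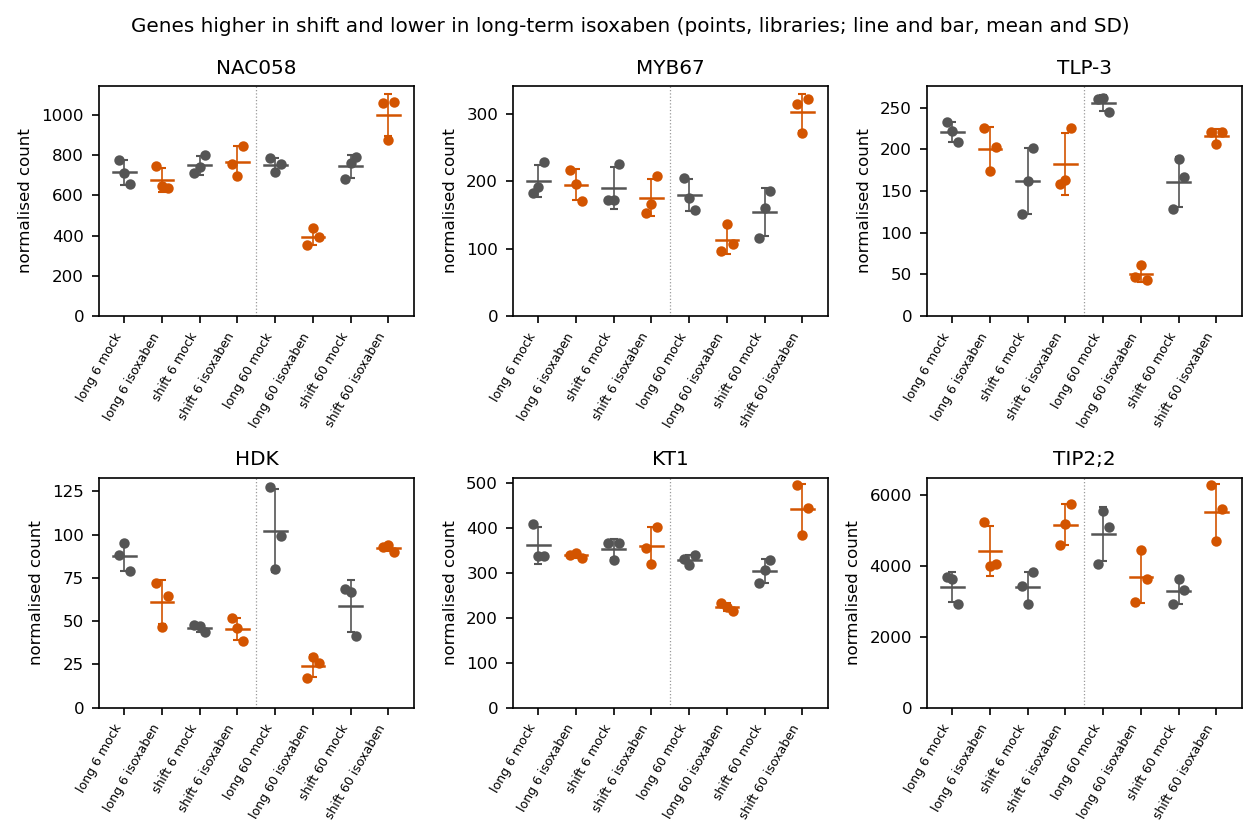
Normalised counts of 6 shift-high genes in the 8 groups (points, libraries; line and bar, mean and SD of 3; orange, isoxaben; grey, mock; the dotted line parts 6 from 60 mM KNO3). In NAC058, MYB67, TLP-3, HDK and KT1 the long-term isoxaben mean at 60 mM is the lowest of the 8 groups; in TIP2;2 the shift mock means and the 6 mM long-term mock mean are lower.

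Of the 59 members, 13 overlap a gene on the opposite strand, among them bHLH38, PAP17, CYCD6;1, KT1, CWLP and UMAMIT33. The strand setting of the counting is not given in the sources used here, beyond a short tag in the name of the deposited count table that may stand for one and that none of them explains. Reads of such a member and its partner may not be told apart. The share, 22.0%, compares with 28.1% of all genes with a mean of at least 50.

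At 6 mM KNO3 the opposite pattern was mostly not seen. The 2 ratios had opposite signs in 25 of 59 members, where 40.9% of all genes did. Both signs were as at 60 mM in 16 members, a count with no matching share of all genes. The rule with its sizes was met the same way by 2 members, LHCB2.2 and RBCS3B, and in the reverse direction by AT3G22142, where 0.161% of all genes had opposite ratios of that size. These 3 genes vary between libraries at 6 mM too. RBCS3B had 1.04, 97.5 and 0 with long-term isoxaben and 45.1, 25.8 and 364 in shift mock. LHCB2.2 had 4.16, 40.5 and 2.11 with long-term isoxaben and 16.3, 14.4 and 87.5 in shift mock. The high values are those of long-term isoxaben replicate 2 and shift mock replicate 3. Their shoot sums, 9160 and 16799, were the highest of their groups. AT3G22142 had 28.2, 44.9 and 190 with shift isoxaben. The median long-term ratio at 6 mM was -0.08 for shift-high and 0.01 for long-term-high genes, and the median shift ratio 0.01 and 0.03. Of the shift-high genes, 20 of 31 were lower with long-term isoxaben, where 51.8% of all genes were, and 18 were higher in the shift, where 48.3% were. Of the 28 long-term-high genes, 15 were higher with long-term isoxaben, where 51.8% of all genes were lower. In the shift 13 of them were lower, where 48.3% of all genes were higher.

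By edgeR's quasi-likelihood test with adjustment over 20546 genes, 3 members changed with long-term isoxaben at 6 mM, 5.1% of the set where 5.69% of all genes were called. AT5G10625 had 785, 732 and 766 in mock and 522, 519.8 and 529.7 with isoxaben. It fell by 0.55 on the log2 scale (SE 0.099, adjusted p = 0.00058), without overlap and in the same direction as at 60 mM. MSRB6 had 108, 99.2 and 93.9 in mock and 181, 199 and 221 with isoxaben. MSRB6 rose by 0.99 (SE 0.20, adjusted p = 0.0020), also as at 60 mM and without overlap. ACS5 had 101, 100.2 and 87.9 in mock and 54.1, 50.8 and 60.3 with isoxaben. ACS5 fell by 0.81 (SE 0.23, adjusted p = 0.035), against its higher mean at 60 mM. Leaving out any 1 of the 6 libraries ends the ACS5 call, with log2 changes from -0.88 to -0.76 and adjusted p up to 0.129; over all 12 alternatives it ranged from 0.00078 to 0.129. The calls of AT5G10625 and MSRB6 held in all of theirs, with adjusted p up to 0.0045 and 0.017.

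In the shift at 6 mM 1 member changed, where 0.949% of all genes were called. ACS5 had 96.97, 87.1 and 91.3 in mock and 27.2, 32.2 and 26.4 with isoxaben. It fell by 1.68 (SE 0.26, adjusted p = 0.00044), and the call held in all 12 alternatives, with adjusted p up to 0.0065. ACS5 was thus lower with isoxaben in both exposures at 6 mM and in the shift at 60 mM. The difference between the 2 exposures in the isoxaben effect was called for 0 members by edgeR, where 0.263% of all genes were called. DESeq2 also called 0 members. By edgeR 4 of the 59 members had an unadjusted p under 0.05 for this difference, and the share of all genes at that level was not counted. The median SE of that difference was 0.27 over the members. For AT5G10625 the difference, long-term minus shift, was -0.50 (SE 0.14, adjusted p = 0.18) and for ACS5 0.86 (SE 0.35, adjusted p = 0.51). In a fit of the 6 mM libraries alone AT5G10625 was called. A miss at this spread does not show that the exposures act alike at 6 mM.

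**Figure D5:**
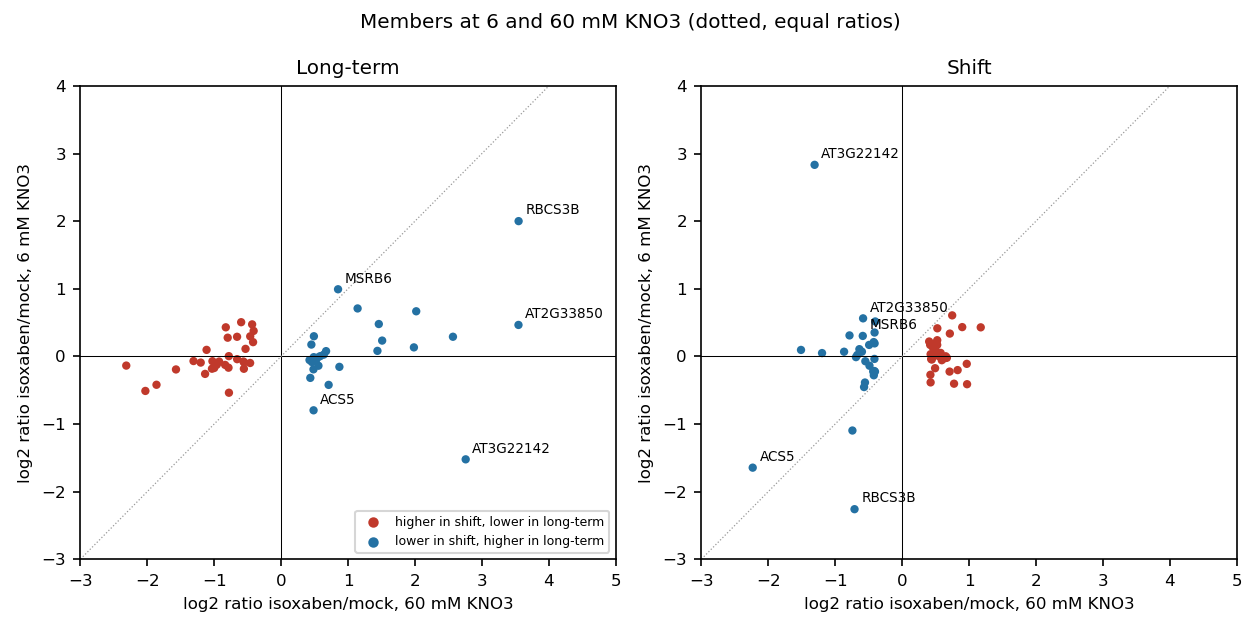
Log2 ratio of isoxaben to mock at 60 mM (x axis) and 6 mM KNO3 (y axis) for the 59 genes, long-term on the left and shift on the right (red, shift-high; blue, long-term-high; dotted, equal ratios). Most points lie near 0 on the y axis; ACS5 in the shift lies near the dotted line, with -2.23 at 60 mM and -1.65 at 6 mM.

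The mock groups at 6 mM give the exposures without isoxaben. Of the shift-high genes 25 of 31 were lower in shift than in long-term mock, where 50% of all genes were, with a median log2 ratio of -0.10; at 60 mM, where the rule used these groups, the count was 28. Of the long-term-high genes 16 of 28 were higher in shift mock, where 50% of all genes were. Between the isoxaben groups, 20 shift-high genes were lower in the shift (50.6% of all genes) and 12 long-term-high genes higher (49.4%). The test called 2 members, where 0.642% of all genes were called. HDK had 88.3, 95.1 and 78.8 in long-term and 48.01, 46.9 and 43.7 in shift mock, and was lower in the shift by a log2 change of -0.92 (SE 0.20, adjusted p = 0.024). MSRB6 had 108, 99.2 and 93.9 in long-term and 195, 175 and 214 in shift mock, and was higher by 0.95 (SE 0.20, adjusted p = 0.0215). Leaving out any 1 of the 6 libraries ends the HDK call, with log2 changes from -0.99 to -0.85 and adjusted p up to 0.11. For MSRB6 leaving out any library but shift mock replicate 2 does, with adjusted p up to 0.112. Over all alternatives adjusted p ran from 0.0082 to 0.11 for HDK and from 0.00015 to 0.112 for MSRB6. In shift mock at 60 mM HDK was lower and MSRB6 higher too, but the rule used those libraries, so this adds nothing to the calls.

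Between the isoxaben groups at 6 mM 1 member was called, where 3.1% of all genes were. AT5G10625 had 522, 519.8 and 529.7 in the long term and 775, 696 and 628 in the shift, a log2 difference of -0.42 for long-term against shift (SE 0.099, adjusted p = 0.016). The call ended without long-term isoxaben replicate 1, 2 or 3 or shift isoxaben replicate 1 or 2, with log2 differences from -0.43 to -0.34 and adjusted p up to 0.101, and over all alternatives adjusted p ran from 0.0031 to 0.101. Apart from the genes named, edgeR's fit of all 24 libraries called no member in any of the 5 comparisons at 6 mM. DESeq2 also called AT4G19720 and AT5G03545 for long-term isoxaben, TIP2;2 for the shift, and AT4G19720, AT3G22142 and ACS5 between the isoxaben groups. By its 6 mM ratio AT4G19720 was higher with long-term isoxaben (0.51), against 60 mM. AT5G03545 (0.67) and TIP2;2 in the shift (0.61) were as at 60 mM. For shift to long-term isoxaben, AT4G19720 (-0.57) and AT3G22142 (4.21) went against 60 mM and ACS5 (-0.92) with it. The fit of the 6 mM libraries alone added AT5G03545 for long-term isoxaben and CLV1 and ACS5 between the isoxaben groups. The replicate block added ARPN and AT3G22142 in the same 2 comparisons, and leaving out 1 library added ARPN, CLV1 or AT5G43690. ARPN, with 0.43 for long-term isoxaben, went against 60 mM. So did CLV1 and AT5G43690, with -0.27 and -0.59 for shift to long-term isoxaben.

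Levels at 60 mM can also be set beside those at 6 mM. The rule chose members by their 60 mM values, so the directions here follow from the choice and nothing is read from them. With long-term isoxaben, 30 of 31 shift-high genes were lower at 60 than at 6 mM, with a median log2 ratio of -0.92, where 47.6% of all genes were lower. Of the long-term-high genes 26 of 28 were higher, with a median of 1.09, where 52.4% of all genes were. In shift isoxaben 26 of the shift-high genes were higher at 60 mM (49.1% of all genes), with a median of 0.31, and 21 of the long-term-high genes were lower (50.9%), with a median of -0.43. In mock the medians lay between -0.09 and 0.06 in both classes and exposures. GSL09 was the shift-high gene that was higher at 60 mM with long-term isoxaben, and AT1G77520 and MSRB6 were the long-term-high genes that were lower.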

How the data were processed

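Per the labels' protocols, polyA-enriched RNA of 24 root samples was made into DNBSEQ libraries. The authors deposited 2 tables, whole-number counts and the normalised signal of each gene. STAR 2.7.9a, DESeq2 1.32.0 and the build TAIR10 are named in the submitters' processing notes, and the annotation and strand setting are not given in the sources used here, beyond an unexplained tag in the count table's name. Dividing the deposited counts by the deposited normalised signal gave 1 constant per library. Ratios and levels are from the normalised values with a pseudocount of 1.

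Tests used edgeR 4.0.16 in R 4.3.3 on the deposited counts: quasi-likelihood fit of 8 group means over 24 libraries with 16 residual degrees of freedom, TMM scaling, and filterByExpr, which left 20546 genes, all 59 members among them. Benjamini-Hochberg adjustment ran over all 20546 genes, with calls at an adjusted p under 0.05. The standard error (SE) is the absolute log2 change divided by the square root of F, an approximation. The common biological coefficient of variation was 7.66%. Simulated data for long-term isoxaben at 6 mM, over 20546 genes, gave 66 of 100 genes changed by a log2 of 0.585 and 82 of 100 changed by 1 as called, with 4 false calls. For the difference between exposures at 6 mM the numbers were 43, 68 and 5. The changed genes were drawn from all 20546. In the real data the median SE for long-term isoxaben at 6 mM was 0.106 over all genes and 0.189 over the members. For the difference it was 0.15 and 0.272. The simulated shares therefore need not hold for the members.

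Members and gene lists were chosen with earlier results of these data known. Named genes were the first 12 of each class by the smaller ratio, the 3 on either side of the threshold, members called at 6 mM and members on a list; further members were named by role after their values were seen. Gene symbols and sequences came from RefSeq TAIR10.1, matched by locus identifier to all 59 members. Alternatives were other scalings, DESeq2 1.42.0, no low-count filter, the 6 mM libraries alone, an added size threshold, a replicate block, leaving out each library, and other settings of the rule.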

Additional observations from a re-analysis of the deposited data

How the results depend on the processing

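With size thresholds of 0.3 and 0.5 in place of 0.4 the rule took 122 and 27 genes, and with a mean of at least 20 it took 93. Leaving out 1 library at a time gave 59 to 81 genes, and 22 members, 15 shift-high and 7 long-term-high, met it in all 12 cases. Of the shift-high genes, NAC058, MYB52 and TIP2;2 met it in 9 of the 12 and AT1G44180 in 8. For long-term isoxaben at 6 mM, DESeq2 called 5 members and 1194 genes in all, against 3 and 1170 by edgeR. With 1 library left out 2 to 3 members and 747 to 939 genes were called. For the shift at 6 mM DESeq2 called 2 members and 243 genes, against 1 and 195. For the difference between exposures at 6 mM a fit of the 6 mM libraries alone called 1 member and 119 genes, against 0 and 54. For the mock groups at 6 mM, 0 to 1 members and 40 to 105 genes were called with 1 library left out, against 2 and 132. For the isoxaben groups at 6 mM DESeq2 called 4 members and 743 genes, against 1 and 637. The 6 mM libraries alone gave 3 and 913, the replicate block 2 and 669, and leaving out 1 library 0 to 3 and 191 to 485. The cause of these differences was not tested, except that leaving out a library leaves fewer samples. No called direction reversed. Replicate numbers do not pair the libraries. Over 84 pairs of libraries with the same number, the correlation of their deviations had a median of 0.01 and ranged from -0.155 to 0.274, so the block was not used; it moved no other count by more than 1.5 times.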
